A study of Mus musculus with 12 samples.

Results

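The transcripts described here are those of 10 genes that bring amino acids into the cell or make serine, asparagine and folate-bound carbon units: Slc3a2, Slc7a5, Slc7a1, Slc38a2, Slc1a4, Slc1a5, Asns, Psat1, Phgdh and Mthfd2. They were chosen by gene symbol, with earlier results of these data known. Shares of all genes given beside their counts are therefore a description and no test of the group. All 10 were found, on 25 of the 45101 probe sets of the Affymetrix Mouse430_2 array. A probe set is a group of short probes against 1 transcript. Of the 25, 21 list the gene alone, and they cover 9 of the 10 genes. Both probe sets of Psat1 also list LOC100047252, and 2 of the 6 probe sets of Phgdh also list a predicted gene, so their signal may not come from the named gene alone. The cells were fibroblasts from mouse embryos that SV40 large T had made immortal. They were wildtype (WT) or a homozygous knockout (KO) of Ppp1r15a, the gene of GADD34. All 12 samples carry the same strain label, which names the allele Ppp1r15A tm1.1.Ajf, the code Mmnc and the backgrounds B6.129P2 and C57Bl/6, and the embryos were 12.5 to 14.5 days old. WT and KO cells were each untreated or given 0.1 mM sodium arsenite for 2 h, with 3 replicate experiments and so 3 arrays in each of the 4 groups. The medium held added glutamine and nonessential amino acids in every group. Nothing in the labels says how many embryos or lines stand behind WT and KO cells, so loss of GADD34 and other differences between the cell populations cannot be told apart, and p-values measure the spread between these experiments.

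Cells meet a shortage of amino acids, or other stresses that phosphorylate the translation factor eIF2, with the integrated stress response. Phosphorylated eIF2 slows translation in general but favours that of the transcription factor ATF4, which with C/EBP partners is known to raise the genes of amino acid carriers, of Asns and of serine and folate enzymes. GADD34 brings a phosphatase to eIF2 and so ends the response, and arsenite is known to start it. The genes described here are much used as ATF4 targets, and the question was how their transcripts stood in each genotype before and after arsenite.

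Values are log2 signals after RMA, a background correction, normalisation and summary per probe set that the authors made. A difference of 1 is a doubling, and signals of different genes are not compared. Each difference stands with its SE, from a limma model of 20753 genes with n = 3 in each group. A gene is read by its brightest probe set, p-values are adjusted by Benjamini-Hochberg, and the threshold is 0.05. Psat1, which has no probe set of its own, was taken from the same model over all 45037 probe sets. Signal under 5.34, the 40th percentile of all values, may be background. Arrays of a group correlated at 0.985 to 0.996. Untreated WT cells had Ppp1r15a at 8.45, 8.57 and 8.88, treated WT cells at 12.24, 12.25 and 11.60. The gene stood at 5.88 to 6.71 on the 6 KO arrays, all below every WT array. All 8 fibroblast markers passed 5.34 in at least 1 group, though Thy1 stood at 5.14 and 5.23 in untreated and treated KO cells, while markers of other cells passed it in 3 of 5 epithelial, 1 of 4 endothelial, 2 of 4 blood, 2 of 4 neural and 2 of 3 muscle genes. Among those above it were Epcam (7.44 to 7.55 in the group means), Kdr (6.62 to 8.07), Csf1r (6.80 to 7.09), Sox10 (6.97 to 7.20) and Des (6.89 to 7.08), and among those under it in all 4 groups were Cdh1, Pecam1, Ptprc, Sox2 and Myog. Between untreated KO and WT cells 2 of the 8 fibroblast markers differed, Col1a2 (14.66 against 10.33) and Thy1 (5.14 against 7.32), as did Krt18 (4.53 against 5.07), Kdr (6.62 against 7.79) and Cd68 (5.22 against 6.08) among 20 markers of other cells. Krt18 lay under 5.34 in all 4 groups, and Cd68 in untreated KO cells, so those values may be background. Thy1 also fell under arsenite in WT cells (6.89 against 7.32). The part of these markers in the differences between KO and WT cells was not tested. In a bulk sample fewer cells of a type and less RNA per cell cannot be told apart. A second deposited table labels 10 of its 12 columns with another sample than the full table does. The full table was used, whose array codes each match 1 of the authors' named group means.

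Promoters of 4 of the genes are shown because Asns and Slc1a4 hold the core that ATF4 and its C/EBP partners are known to bind, while Slc3a2 and Slc38a2 had the largest changes under arsenite in WT cells. The core searched was TGATGNAA on both strands, in the RefSeq windows (GRCm38.p6) of 250 bases before to 50 after a transcript start. Windows were given for 8 of the 10 genes, 10 windows in all, and 2 held the core, against 3.97% of all 32851 windows. Each sequence below runs 5′ to 3′ along the gene, which lies on the minus strand in all 4 cases, through the first 10 transcribed bases, with the core in capitals.
Asns promoter: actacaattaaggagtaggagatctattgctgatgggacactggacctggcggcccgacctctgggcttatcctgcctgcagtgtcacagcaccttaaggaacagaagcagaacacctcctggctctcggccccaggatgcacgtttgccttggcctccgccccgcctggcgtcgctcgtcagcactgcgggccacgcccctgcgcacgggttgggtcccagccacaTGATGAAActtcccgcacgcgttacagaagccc
Slc1a4 promoter: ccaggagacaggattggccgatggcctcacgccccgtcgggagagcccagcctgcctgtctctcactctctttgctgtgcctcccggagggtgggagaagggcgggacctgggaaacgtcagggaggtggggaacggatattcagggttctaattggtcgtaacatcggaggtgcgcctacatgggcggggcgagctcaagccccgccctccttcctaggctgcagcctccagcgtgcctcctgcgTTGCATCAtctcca
Slc3a2 promoter: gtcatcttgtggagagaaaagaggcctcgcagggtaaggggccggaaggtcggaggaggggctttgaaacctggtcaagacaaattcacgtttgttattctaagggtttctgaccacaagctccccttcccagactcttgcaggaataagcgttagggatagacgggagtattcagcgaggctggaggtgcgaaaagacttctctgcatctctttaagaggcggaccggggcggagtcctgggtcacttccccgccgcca
Slc38a2 promoter: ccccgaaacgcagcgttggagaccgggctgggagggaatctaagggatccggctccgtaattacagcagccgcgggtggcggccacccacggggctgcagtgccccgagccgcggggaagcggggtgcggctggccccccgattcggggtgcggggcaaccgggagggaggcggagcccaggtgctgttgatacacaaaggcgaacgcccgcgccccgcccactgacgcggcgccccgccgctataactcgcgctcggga
These lie at chr6:7693200-7693459, chr11:20332704-20332963, chr19:8713888-8714147 and chr15:96699719-96699978. With the start counted as 0, the core of Asns runs from base -23 to base -16 in the direction of the gene. In Slc1a4 it reads on the opposite strand and spans the start, from base -4 to base 3. The Slc3a2 window lies inside the annotated gene (chromosome 19, 8706882 to 8723369), at the start of 1 of its transcripts. A match in these letters is a description and not a shown binding site, and an absent match speaks only of these windows.

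**Figure D1:**
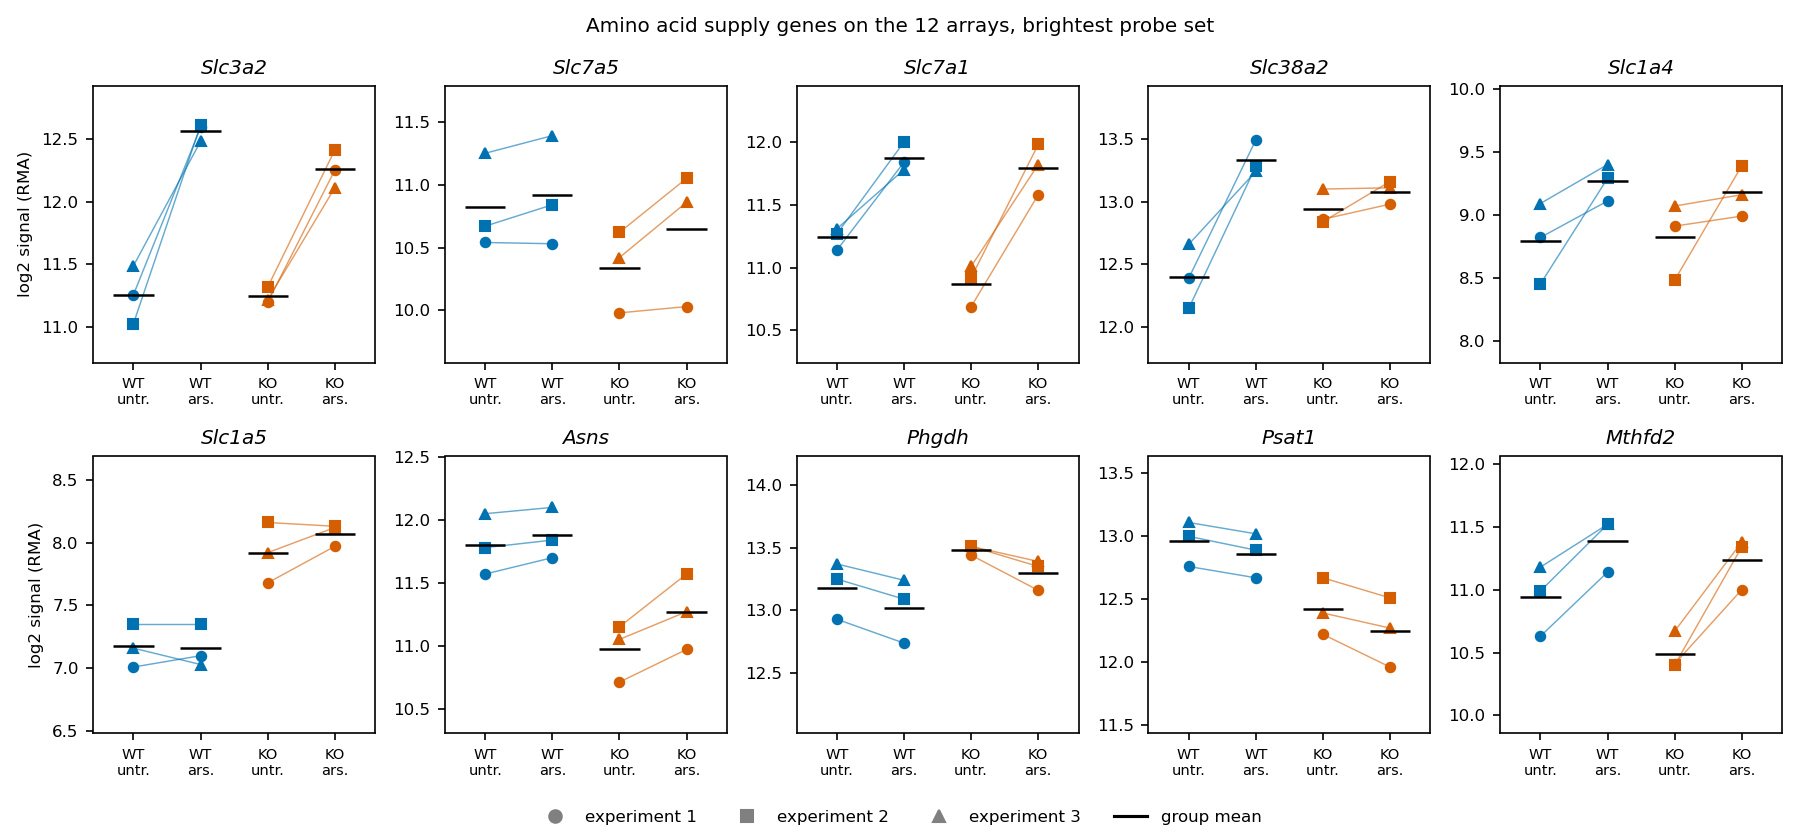
Log2 RMA signal of the brightest probe set of each gene (vertical axes, all of the same height in log2 units) on the 12 arrays, by group. Lines join the arrays of 1 experiment, symbols mark the experiment and bars the group means; all 6 Slc3a2 lines rise, while Slc38a2 climbs in WT and hardly in KO cells, and Slc1a5 and Asns separate the genotypes.

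Arsenite in WT cells raised 3 of the 9 genes tested in the gene fit, Slc3a2, Slc38a2 and Slc7a1, and lowered 0 in limma, where 5 had an unadjusted p under 0.05 upward and 0 downward. All 3 are carriers or carrier subunits. Past the adjusted threshold 1.65% of all genes rose and 0.477% fell. The share of all genes with an unadjusted p under 0.05 is not reported here and is larger. Slc1a4, at an unadjusted limma p of 0.0247, held place 1676 of 20753. The median change of the 9 was 0.46, against -0.01 over all genes. The genes of synthesis, Asns, Phgdh, Psat1 and Mthfd2, did not pass in the fit without pairing, and Mthfd2 passed once the replicate experiment was a block. Treated and untreated WT arrays stood apart without overlap in 4 of the 9 genes, all upward, and 9.84% of all genes did so.

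Slc3a2 encodes the heavy chain that carries several amino acid exchangers, Slc7a5 among them, to the cell surface. In WT cells its log2 signal was 11.26, 11.03 and 11.49 before arsenite and 12.59, 12.61 and 12.48 after it. All treated arrays stood above all untreated ones. The rise was 1.30 ± 0.12, or 2.46-fold (limma adjusted p = 0.00015), and by experiment it was 1.34, 1.58 and 0.99. Slc7a5, its partner that exchanges leucine and other large neutral amino acids, gave 10.54, 10.67 and 11.25 untreated and 10.53, 10.84 and 11.39 treated. The 2 groups overlapped throughout, and the spread between experiments exceeded the change of 0.10 ± 0.30 (limma adjusted p = 0.95). Its 95% interval ran from -0.56 to 0.76, which leaves out a rise as large as that of Slc3a2. Within the experiments Slc7a5 changed by -0.02, 0.17 and 0.14, and with the experiment as a block by 0.10 ± 0.17 (limma adjusted p = 0.825).

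Slc38a2 encodes a sodium-coupled carrier of small neutral amino acids such as alanine and glutamine. It gave 12.39, 12.15 and 12.66 on the untreated and 13.49, 13.28 and 13.24 on the treated WT arrays, without overlap. The rise was 0.93 ± 0.13, or 1.91-fold (limma adjusted p = 0.00303). It rests on the brightest of 3 probe sets. The others changed by 0.43 ± 0.32 and 0.30 ± 0.18 and did not pass, and with the mean of the 3 the change was 0.55 ± 0.16 (limma adjusted p = 0.139). Which of them reads the transcript better was not tested.

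Slc7a1 encodes the main carrier of arginine and lysine in many cell types. Its untreated WT arrays stood at 11.14, 11.27 and 11.31 and its treated ones at 11.84, 12.00 and 11.78, again without overlap. It rose by 0.63 ± 0.12, or 1.55-fold (limma adjusted p = 0.0179). A further probe set gave 0.64 ± 0.17, which did not pass over all probe sets (limma adjusted p = 0.0924, and 0.00198 with the experiment as a block). The last, at 4.63 to 4.86 in the group means and so possibly background, gave 0.14 ± 0.14. The call was lost without WT untreated replicate 1 (0.58, limma adjusted p = 0.0882) or 2 (0.65, limma adjusted p = 0.0613), and without WT arsenite replicate 1 (0.65, limma adjusted p = 0.0648) or 2 (0.57, limma adjusted p = 0.0946).

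The other carriers did not pass in WT cells. Slc1a4, which exchanges alanine, serine and cysteine, gave 8.82, 8.45 and 9.09 untreated and 9.11, 9.29 and 9.40 treated. The treated arrays all stood above the untreated ones, if narrowly, and the change was 0.48 ± 0.19 (limma adjusted p = 0.305). Its other probe sets gave 0.52 ± 0.21 and 0.46 ± 0.16. Slc1a5, an exchanger that takes up glutamine, was at 7.01, 7.35 and 7.16 untreated and 7.10, 7.35 and 7.03 treated, a change of -0.02 ± 0.14 (limma adjusted p = 0.984). Its 95% interval was -0.32 to 0.29.

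Mthfd2, a mitochondrial folate enzyme that is low in most adult tissues and present in dividing cells, gave 10.63, 10.99 and 11.18 on the untreated and 11.14, 11.52 and 11.52 on the treated WT arrays. The groups overlapped, but each experiment moved up, by 0.51, 0.53 and 0.34. The change was 0.46 ± 0.17 (limma adjusted p = 0.264) and, with the experiment as a block, 0.46 ± 0.09 (limma adjusted p = 0.0186). The other Mthfd2 probe set gave 0.39 ± 0.20 and did not pass (limma adjusted p = 0.497 over all probe sets, and 0.118 with the block). With that block 4 of the 9 genes rose, against 3.09% of all genes. Asns, which makes asparagine from aspartate and glutamine, gave 11.57, 11.78 and 12.05 untreated and 11.70, 11.84 and 12.10 treated, a change of 0.08 ± 0.18 (limma adjusted p = 0.931). Phgdh, which takes the first step of serine synthesis, changed by -0.16 ± 0.14 (limma adjusted p = 0.753), and all 6 of its probe sets lay between -0.22 and -0.14. Psat1, the transaminase of the next step, changed by -0.09 ± 0.16 (limma adjusted p = 0.902). In each of the 3 experiments the treated array of Phgdh and of Psat1 stood below its untreated one, by 0.13 to 0.19 and by 0.08 to 0.10.

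**Figure D2:**
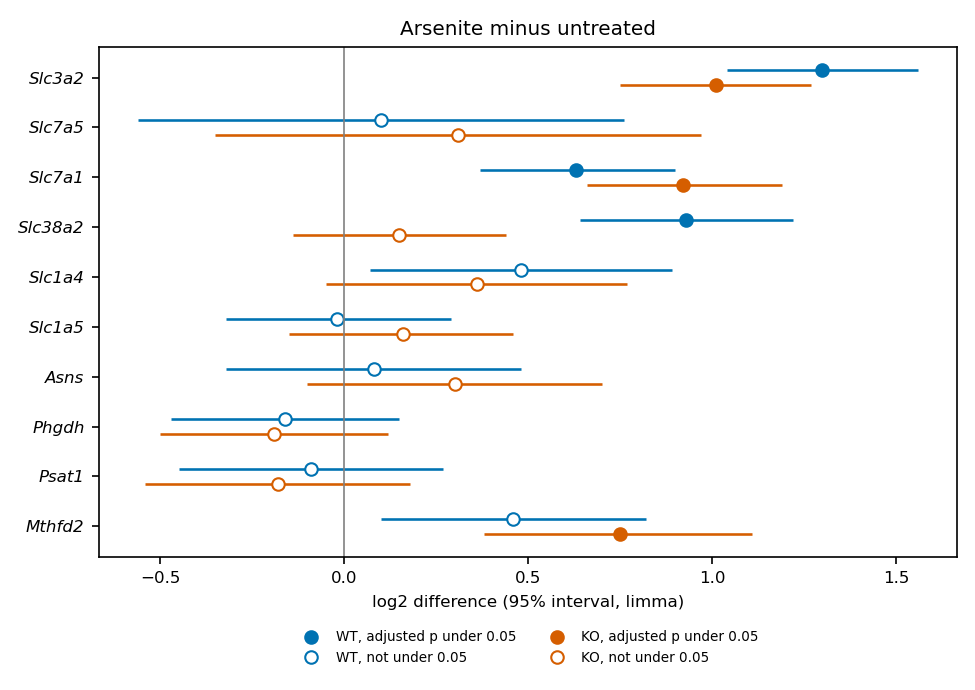
Arsenite minus untreated log2 difference (horizontal axis, 95% interval from limma) of the 10 genes in WT and KO cells. Filled points passed the threshold: Slc3a2 and Slc7a1 in both genotypes, Slc38a2 in WT cells and Mthfd2 in KO cells.

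Arsenite in KO cells raised Slc3a2, Slc7a1 and Mthfd2, 3 of the 9 genes, and lowered 0 in limma. Past the same threshold 3.74% of all genes rose and 3.80% fell. An unadjusted p under 0.05 was seen in 3 of the 9 upward, the same genes, and 0 downward. The share of all genes at that unadjusted p is not reported here. The median of the 9 was 0.31, against 0.03 over all genes. Slc38a2 did not pass. The treated and untreated KO arrays stood apart upward in 3 genes and downward in 1, against 14.0% and 9.68% of all genes.

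In KO cells Slc3a2 gave 11.20, 11.32 and 11.22 untreated and 12.25, 12.41 and 12.11 treated. The arrays stood well apart, and the rise was 1.01 ± 0.12, or 2.01-fold (limma adjusted p = 0.0005). Slc7a1 gave 10.69, 10.92 and 11.01 untreated and 11.58, 11.98 and 11.82 treated. It rose by 0.92 ± 0.12, or 1.89-fold (limma adjusted p = 0.000892), and by 1.08 ± 0.17 on the next brightest probe set (limma adjusted p = 0.00278 over all probe sets). Mthfd2 gave 10.41, 10.40 and 10.67 untreated and 11.0, 11.34 and 11.38 treated, without overlap. Its rise was 0.75 ± 0.17, or 1.68-fold (limma adjusted p = 0.0179). Its other probe set gave 0.63 ± 0.20, which did not pass over all probe sets (limma adjusted p = 0.0944, and 0.00785 with the block). The Mthfd2 call was lost with the KO arrays alone (limma adjusted p = 0.0516), and without KO untreated replicate 1 (0.70, limma adjusted p = 0.064) or 2 (0.70, limma adjusted p = 0.0586) or KO arsenite replicate 2 (0.69, limma adjusted p = 0.0626) or 3 (0.68, limma adjusted p = 0.0507).

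Slc38a2 stood at 12.86, 12.84 and 13.10 on the untreated KO arrays and at 12.98, 13.16 and 13.11 on the treated ones. The groups overlapped, and the change was 0.15 ± 0.13 (limma adjusted p = 0.578). Slc7a5 gave 9.98, 10.62 and 10.42 untreated and 10.03, 11.05 and 10.86 treated, a change of 0.31 ± 0.30 (limma adjusted p = 0.613). The experiments differed more than the treatments. Within the experiments Slc7a5 changed by 0.05, 0.43 and 0.45, and with the block by 0.31 ± 0.17, which did not pass (limma adjusted p = 0.263). Slc1a4 changed by 0.36 ± 0.19 (limma adjusted p = 0.299), and by experiment by 0.08, 0.91 and 0.09, so that experiment 2 alone carried most of it. Slc1a5 changed by 0.16 ± 0.14 (limma adjusted p = 0.57), and its dimmer probe set by -0.30 ± 0.11. Asns gave 10.71, 11.15 and 11.05 untreated and 10.97, 11.57 and 11.27 treated, a change of 0.30 ± 0.18 that was positive in each experiment. It did not pass (limma adjusted p = 0.382, and 0.109 with the block). Its other probe set gave 0.35 ± 0.18 (limma adjusted p = 0.305 over all probe sets) and passed with the block (limma adjusted p = 0.0475). Phgdh was lower on every treated KO array, at 13.16, 13.35 and 13.39, than on every untreated one, at 13.44, 13.51 and 13.51, and the change of -0.19 ± 0.14 did not pass (limma adjusted p = 0.495). Psat1 changed by -0.18 ± 0.16 (limma adjusted p = 0.6).

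The arsenite responses of KO and WT cells were then compared directly. Of the 9 genes 0 passed in limma, where 1 had an unadjusted p under 0.05. Over all genes 7 passed, or 0.0337%, and 1221 had an unadjusted p under 0.05. That 1 gene was Slc38a2, whose response was smaller in KO cells by 0.78 on the log2 scale.

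The difference of the Slc38a2 responses was -0.78 ± 0.19, with a 95% interval of -1.20 to -0.37 (limma adjusted p = 0.325, unadjusted p = 0.00154, place 97 of 20753). By experiment the WT change was 1.09, 1.13 and 0.57 and the KO change 0.12, 0.32 and 0.01. Each WT change thus exceeded each KO change. With the experiment as a block the limma adjusted p was 0.142, and over all alternatives it was 0.142 to 0.939. The 2 dimmer probe sets gave -0.27 ± 0.45 and -0.29 ± 0.25. For Slc3a2 the difference was -0.29 ± 0.17 (interval -0.66 to 0.08), for Slc7a1 0.29 ± 0.17 (-0.08 to 0.66) and for Mthfd2 0.29 ± 0.23 (-0.23 to 0.80). The intervals of these 3 genes include 0. The remaining 5 genes and Psat1 gave -0.12 to 0.22, and a difference of responses is not shown to be absent for any of them.

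Untreated KO and WT cells differed in 3 of the 9 genes, with Slc38a2 and Slc1a5 higher and Asns lower in KO cells. Psat1 was also lower on both of its shared probe sets, as were 8.17% of all probe sets. Differences between the genotypes were common, since 9.83% of all genes were higher and 10.3% lower in KO cells. With the experiment as a block 3 of the 9 were higher and 3 lower, against 14.3% and 14.9% of all genes. The median of the 9 was -0.01, as over all genes. Where KO and WT arrays are said below not to overlap, untreated or treated, this is a description only. The share of all genes with such separation is not reported here. The comparisons of this and the preceding paragraphs share arrays and are not independent of each other.

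Slc1a5 showed the largest KO excess of the 9. It gave 7.68, 8.16 and 7.92 on the untreated KO arrays against 7.01, 7.35 and 7.16 in WT cells, with no overlap. The difference was 0.74 ± 0.14, or 1.67-fold (limma adjusted p = 0.00259). Its dimmer probe set stood at 6.17, 6.04 and 5.98 against 5.77, 5.76 and 5.74, a difference of 0.30 ± 0.11 that did not pass over all probe sets (limma adjusted p = 0.0786). Slc38a2 stood at 12.86, 12.84 and 13.10 in untreated KO against 12.39, 12.15 and 12.66 in untreated WT cells. It was higher by 0.53 ± 0.13, or 1.45-fold (limma adjusted p = 0.0145), and the other probe sets gave 0.25 ± 0.32 and 0.02 ± 0.18. That call was lost with the mean of the 3 probe sets (0.27, limma adjusted p = 0.312), without WT untreated replicate 2 (0.41, limma adjusted p = 0.0607) and without KO untreated replicate 3 (0.45, limma adjusted p = 0.0628).

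Asns was lower on each untreated KO array, at 10.71, 11.15 and 11.05, than on each WT array, at 11.57, 11.78 and 12.05. The difference was -0.83 ± 0.18, or 0.562 of the WT signal (limma adjusted p = 0.00666), and the other probe set gave -0.76 ± 0.18. Psat1 was at 12.22, 12.67 and 12.39 in KO against 12.76, 13.00 and 13.11 in WT cells, without overlap. Its difference was -0.53 ± 0.16 (limma adjusted p = 0.0483 over all probe sets), and its other shared probe set gave -0.56 ± 0.16 (limma adjusted p = 0.0332). The Psat1 call lay close to the threshold and was lost in 11 of 19 alternatives, at adjusted p = 0.0515 to 0.169. These were a second quantile normalisation, centring on medians, the untreated arrays alone, and leaving out WT untreated replicate 2 or 3, WT arsenite replicate 1, 2 or 3, KO untreated replicate 1 or 3, or KO arsenite replicate 3. The difference then ran from -0.55 to -0.43.

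Phgdh went the other way. It gave 13.44, 13.51 and 13.51 in untreated KO against 12.93, 13.25 and 13.37 in WT cells, without overlap. The difference was 0.30 ± 0.14 (limma adjusted p = 0.176) and passed with the experiment as a block (0.30 ± 0.09, limma adjusted p = 0.0292). All 6 probe sets gave 0.30 to 0.41. Each is of the kind that may bind related transcripts, 2 of them list a predicted gene as well, and 1 passed by itself (0.36 ± 0.11, limma adjusted p = 0.0455 over all probe sets). The first enzyme of serine synthesis and the next thus stood on opposite sides of 0 between the genotypes, although that contrast between the genes was not itself tested.

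Mthfd2 and Slc7a1 lay lower in untreated KO cells when the experiments were paired. Mthfd2 gave 10.41, 10.40 and 10.67 against 10.63, 10.99 and 11.18, a difference of -0.44 ± 0.17 (limma adjusted p = 0.0872, and 0.00431 with the block). Without WT untreated replicate 1 it was -0.60 (limma adjusted p = 0.0319). Slc7a1 differed by -0.37 ± 0.12 (limma adjusted p = 0.0516, and 0.0112 with the block), with all KO arrays below all WT arrays. It also passed with quantile normalisation again (limma adjusted p = 0.0493), without dim genes (limma adjusted p = 0.0427), with the mean over probe sets (limma adjusted p = 0.031) and without KO arsenite replicate 1 (limma adjusted p = 0.0328) or 2 (limma adjusted p = 0.0378). Slc7a5 differed by -0.48 ± 0.30 (limma adjusted p = 0.33, and 0.0577 with the block). Slc3a2 and Slc1a4 gave -0.01 ± 0.12 and 0.04 ± 0.19, with intervals of -0.28 to 0.25 and -0.37 to 0.44.

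**Figure D3:**
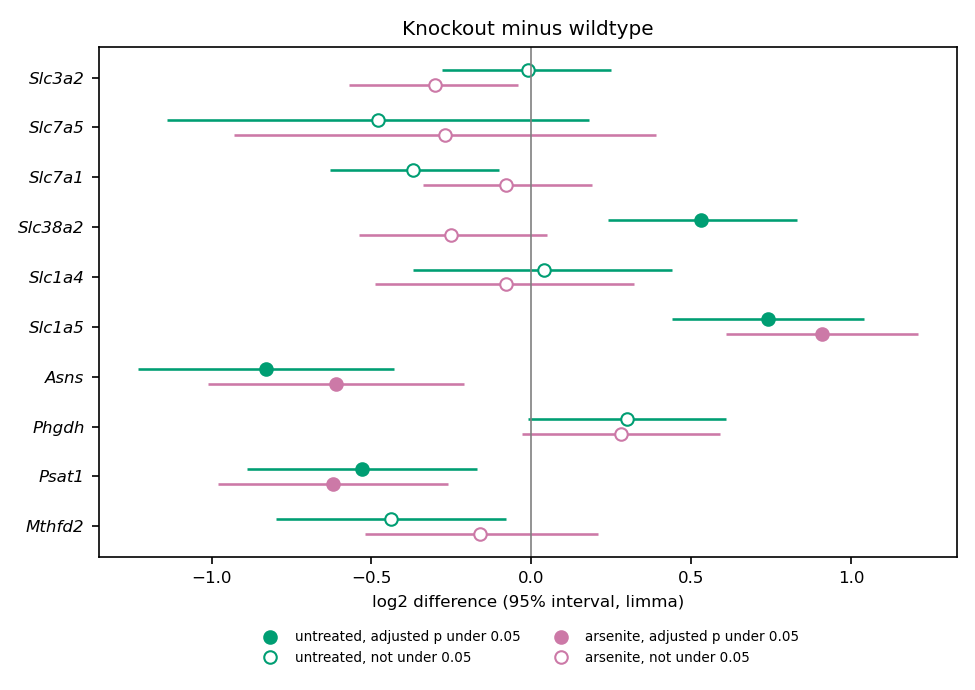
KO minus WT log2 difference (horizontal axis, 95% interval from limma) of the 10 genes in untreated and arsenite-treated cells. Filled points passed the threshold: Slc1a5 lies to the right and Asns and Psat1 to the left in both conditions, while Slc38a2 has a filled point only in the untreated cells.

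Under arsenite KO and WT cells differed in 2 of the 9 genes, Slc1a5 and Asns, against 10.3% of all genes higher and 10.8% lower in KO cells. Slc1a5 gave 7.97, 8.13 and 8.12 in treated KO against 7.10, 7.35 and 7.03 in treated WT cells, with no overlap. The difference was 0.91 ± 0.14, or 1.88-fold (limma adjusted p = 0.000651), but 0.05 ± 0.11 on the dimmer probe set. With the mean of the 2 probe sets it was 0.48 and still passed. Asns gave 10.97, 11.57 and 11.27 in KO against 11.70, 11.84 and 12.10 in WT cells, again without overlap. It was lower, with a difference of -0.61 ± 0.18, or 0.655 of the WT signal (limma adjusted p = 0.032). This call was lost with the treated arrays alone (limma adjusted p = 0.0542), and without WT arsenite replicate 2 (-0.63, limma adjusted p = 0.0718) or 3 (-0.50, limma adjusted p = 0.124) or KO arsenite replicate 1 (-0.46, limma adjusted p = 0.121) or 3 (-0.61, limma adjusted p = 0.0741). The other Asns probe set gave -0.56 ± 0.18 and did not pass (limma adjusted p = 0.0552 over all probe sets).

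Psat1 gave 11.96, 12.51 and 12.27 in treated KO against 12.67, 12.89 and 13.02 in treated WT cells. The difference was -0.62 ± 0.16 (limma adjusted p = 0.0229 over all probe sets), and -0.66 ± 0.16 on its other probe set, and 9.43% of all probe sets were lower in treated KO cells. It was lost without WT arsenite replicate 2 (-0.60, limma adjusted p = 0.0714) or 3 (-0.54, limma adjusted p = 0.0906) or KO arsenite replicate 1 (-0.47, limma adjusted p = 0.0891) or 3 (-0.63, limma adjusted p = 0.0511). Phgdh differed by 0.28 ± 0.14 (limma adjusted p = 0.213, and 0.0418 with the block), so that with the block 2 of the 9 genes were higher in KO cells, against 15.1% of all genes. All Phgdh probe sets gave 0.28 to 0.42. Those at 0.41 ± 0.11 and 0.41 ± 0.12 passed without the block (limma adjusted p = 0.0238 and 0.0323 over all probe sets). The latter also lists a predicted gene. Slc38a2, higher in KO cells before treatment, gave -0.25 ± 0.13 (limma adjusted p = 0.242), with the treated KO arrays all below the treated WT arrays. Slc3a2 likewise gave -0.30 ± 0.12 (limma adjusted p = 0.1), its KO arrays at 12.25, 12.41 and 12.11 against 12.59, 12.61 and 12.48. Neither difference passed, and the separation of the arrays is a description. Slc7a1, Slc7a5, Slc1a4 and Mthfd2 gave -0.27 to -0.08 and did not pass.

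**Figure D4:**
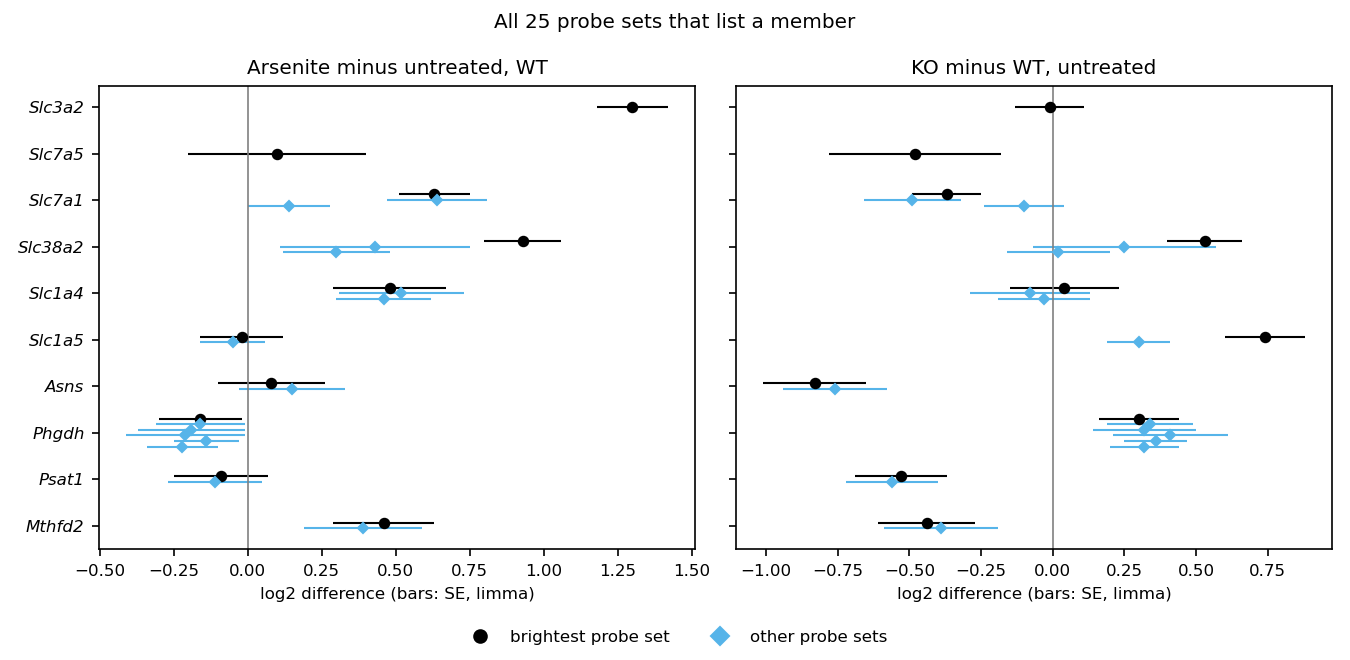
Log2 difference of each of the 25 probe sets (points, bars are SE from limma) for arsenite in WT cells and for untreated KO minus WT cells. In the left panel the probe sets of Slc38a2 (0.30 to 0.93) and Slc7a1 (0.14 to 0.64) spread, and in the right panel those of Slc38a2 (0.02 to 0.53), Slc1a5 (0.30 and 0.74) and Slc7a1 (-0.49 to -0.10).

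Other genes of the same metabolism were counted in 4 lists, which were also chosen with earlier results of these data known. Their counts beside the shares of all genes are a description. Of 27 other amino acid carriers 0 rose and 0 fell under arsenite in limma in either genotype, with an unadjusted p under 0.05 in 2 in WT and 5 in KO cells. With the replicate block 3 rose and 2 fell in KO cells and 0 in WT cells. Of all 20753 genes, 3051 passed with the block in KO cells and 1013 in WT cells, up or down. Among 15 genes of serine, glycine and folate metabolism 0 passed in WT cells (1 at an unadjusted p under 0.05, and 1 up with the block). Of 19 genes of other synthesis and breakdown 0 passed in either genotype, also with the block, and the unadjusted p was under 0.05 in 0 in WT and 1 in KO cells. The share of all genes at that unadjusted p is not reported here. The medians of these 3 lists were between -0.03 and 0.03 in WT and between -0.10 and 0.12 in KO cells.

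Of 16 genes of amino acid sensing and its transcription factors, 7 rose and 0 fell in WT cells, where 1.65% of all genes rose, with a median of 0.54. Trib3, a pseudokinase that restrains ATF4, rose by 3.21 ± 0.40 (limma adjusted p = 0.00117), Ddit3, which encodes CHOP, by 3.04 ± 0.13 (limma adjusted p = 3.7e-07), and Sesn2, a leucine sensor of the mTORC1 pathway, by 2.88 ± 0.15 (limma adjusted p = 1.28e-06). In KO cells 7 rose and 1 fell, against 3.74% and 3.80% of all genes, with a median of 0.31, and Ddit3 rose by 3.53 ± 0.13, Trib3 by 2.83 ± 0.40 and Sesn2 by 2.15 ± 0.15. Atf4 itself, chosen after its values were seen, rose by 1.5 ± 0.09 in WT (limma adjusted p = 5.67e-06) and 1.69 ± 0.09 in KO cells (limma adjusted p = 1.12e-06). It was lower in untreated KO cells, with a difference from WT of -0.35 ± 0.09 (limma adjusted p = 0.0192). Its transcript says nothing of the amount of ATF4 protein, which is set mainly by translation.

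Between untreated KO and WT cells, where 9.83% of all genes were higher and 10.3% lower in KO cells, the same lists were counted. With the block these shares were 14.3% and 14.9%. Of the 27 other carriers 5 were higher and 2 lower in KO cells (median 0.02). Slc7a2, another carrier of arginine and lysine, averaged 10.41 in KO and 4.42 in WT cells, the latter possibly background, so the difference of 5.98 ± 0.43 is a lower bound (limma adjusted p = 2.39e-06). Slc38a1, a relative of Slc38a2, was higher by 1.93 ± 0.33 (limma adjusted p = 0.00165) and Slc1a3, a glutamate and aspartate carrier, by 1.76 ± 0.23 (limma adjusted p = 0.000233). In serine, glycine and folate metabolism 1 was higher and 3 lower (median -0.26, or 1 and 7 with the block). Psph, the last step of serine synthesis, was lower, with a difference of -0.88 ± 0.26 (limma adjusted p = 0.0348) as was Aldh1l2, a mitochondrial folate enzyme, with -1.80 ± 0.40 (limma adjusted p = 0.00789), while Cth, which makes cysteine, was higher by 1.06 ± 0.23 (limma adjusted p = 0.00759). Both Psph and Psat1 were thus lower in KO cells and Phgdh was not.

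Of other synthesis and breakdown genes 6 were higher and 1 lower in untreated KO cells, with a median of 0.49 (10 and 2 with the block). The shares of all genes with the block were 14.3% and 14.9%, as above. Bcat2, which breaks down branched amino acids, was higher by 2.46 ± 0.18 (limma adjusted p = 2.73e-06), Asrgl1, an asparaginase, by 1.23 ± 0.09 (limma adjusted p = 4.74e-06) and Glul, which makes glutamine, by 0.98 ± 0.12 (limma adjusted p = 0.000196). Beside the lower Asns, then, a gene of asparagine breakdown was higher. In the sensing list 3 were higher and 5 lower (median -0.12), with Ddit3 at -1.33 ± 0.13 (limma adjusted p = 3.35e-05), Ddit4, which holds back mTORC1, at -1.24 ± 0.25 (limma adjusted p = 0.00468) and Atf5 at -0.94 ± 0.27 (limma adjusted p = 0.027). Between treated KO and WT cells the 4 lists gave 6 higher and 2 lower, 1 and 3, 6 and 3, and 3 and 7, in the order above, where 10.3% of all genes were higher and 10.8% lower. Of the difference between arsenite responses 0 genes in the 4 lists passed in limma, also with the block. An unadjusted p under 0.05 was seen for 4 genes of the sensing list and 0 of the others, against 1221 of all 20753 genes.

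**Figure D5:**
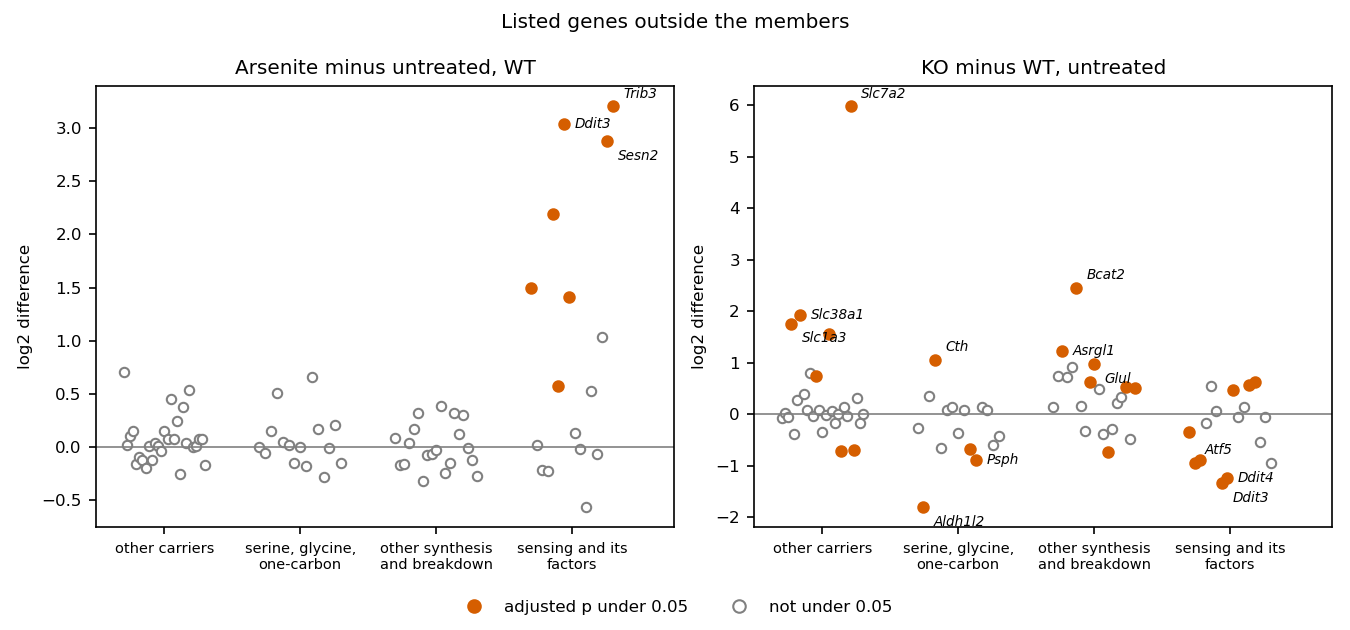
Log2 difference (vertical axes) of each listed gene outside the 10, by list, for arsenite in WT cells and for untreated KO minus WT cells. Filled points passed the threshold, and up to 3 per list with the largest differences are labelled; in the left panel all 7 filled points are in the sensing list, and in the right panel they are in all 4 lists.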

How the data were processed

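Total RNA was read on 12 Mouse430_2 arrays, per the file headers. The deposited values are log2 signals that the authors made with RMA, per the submitters' processing notes, which give no version. Array groups come from the full table, whose 4 named mean columns each equal the mean of 1 array code within 1e-06. Of 45101 probe sets 64 controls, 5654 with no symbol and 1253 with several genes were left out of the gene fit. Of the 38130 left, 35046 were matched to RefSeq (GRCm38.p6) by Entrez identifier. Of several probe sets of a gene the brightest was used, which gave 20753 genes. Groups were fitted with limma 3.58.1 (R 4.3.3, statmod 1.5.0) to all 12 arrays without a replicate block, two-sided, and the fit was tested on simulated data. All 45037 non-control probe sets were fitted likewise. Array medians were 5.92 to 5.96, and the number of arrays limits the precision. Actb gave 0.223 to 0.399 more log2 signal at its 3′ than its 5′ probes, which reads RNA integrity.

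By the design text each replicate experiment held all 4 conditions, so replicate numbers pair the arrays. Deviations from the group mean correlated at 0.231 to 0.738 in the 18 pairs with the same number and at -0.575 to -0.0106 in the 36 pairs with different numbers. Alternatives were the replicate block, the compared arrays alone, a second quantile normalisation, median centring, no dim genes, the mean over probe sets, trended robust variance, each array left out, and the labels of the second table. Named are the 10 genes, up to 3 genes per list with the largest change past the threshold, and for each of the 10 the 3 genes most correlated with it over the 12 arrays. Genes that this rule also selects but the text does not name are not reported here. Atf4 was added after its values were seen. The members and lists were chosen with earlier results of these data known. Gcat, Pycr3 and Samtor of the lists, and Psat1, had no probe set of their own in the gene fit.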

Additional observations from a re-analysis of the deposited data

How the results depend on the processing

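Of 50 gene values, 13 past the threshold, 0 of those 13 changed direction in up to 19 alternatives. Slc3a2 in both genotypes, Slc7a1 in KO cells, Slc1a5 between the genotypes in both conditions and Asns between untreated cells kept their calls in all 19, which leave out the second table's labels, under which 0 of the 9 genes passed. The calls lost or gained are given beside the results, and the replicate block changed no other call of the 10 genes on their brightest probe sets. With the replicate block, which pairs the arrays of an experiment, 1013 rather than 441 genes passed for arsenite in WT cells, 3051 rather than 1566 in KO cells, and 12 rather than 7 for the difference of responses, and 6 rather than 3 of the 9 genes passed between untreated KO and WT cells. With the compared arrays alone 476 genes passed for arsenite in KO cells, and 1 rather than 2 of the 9 between treated KO and WT cells. With the mean over probe sets 4 genes passed for the difference of responses, and 3 values that had not passed changed sign, Slc1a5 in KO cells under arsenite (-0.07 from 0.16), Slc1a4 between untreated cells (-0.03 from 0.04) and the Slc1a5 difference of responses (-0.04 from 0.17). With the second table's labels instead, 0 genes passed in all 5 comparisons. Leaving out 1 array gave 255 to 493 genes for arsenite in WT cells, 937 to 1809 in KO cells, 1 to 69 for the difference of responses (69 without KO arsenite replicate 3), and 1 to 2 of the 9 between treated cells. It turned the sign of values that had not passed. These were arsenite in WT cells for Slc7a5 (-0.14 to 0.31), Slc1a5 (-0.11 to 0.07), Asns (-0.04 to 0.21) and Psat1 (-0.19 to 0), untreated KO minus WT for Slc3a2 (-0.13 to 0.1) and Slc1a4 (-0.13 to 0.21), treated KO minus WT for Slc7a5 (-0.47 to 0.04), Slc7a1 (-0.17 to 0.03) and Slc1a4 (-0.19 to 0.01), and the difference of responses for Slc7a5 (0 to 0.52), Slc1a4 (-0.29 to 0.05), Psat1 (-0.22 to 0.06) and Phgdh (-0.16 to 0.1). The cause was not tested. Signals near 5.34, as on 1 Slc7a1 probe set, limit what can be read.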

Other observations

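The 10 genes differed between the replicate experiments as well as between the groups. In experiment 1, 7 of the 10 lay below their group mean in all 4 groups, namely Slc7a5, Slc7a1, Slc1a5, Asns, Phgdh, Psat1 and Mthfd2, as did 16.6% of all genes. The median deviation of the 10 was -0.16 in experiment 1, 0.07 in experiment 2 and 0.11 in experiment 3, against 0, 0.01 and -0.01 over all genes. Slc7a5 moved most, by -0.41, 0.11 and 0.3 on average.

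The genes whose log2 signal followed each of the 10 most closely over the 12 arrays are given as a description, since the arrays share their groups and experiments. Over 14773 genes the highest Pearson r with Slc3a2 were those of Zbtb2 and Sesn2 (both 0.974) and Mt2 (0.972), a metallothionein. Slc7a1 was followed by Chac1 (0.986), which breaks down glutathione, Stx3 (0.979) and Pmaip1 (0.976). Chac1 was also among the closest to Mthfd2 (0.938), between 1110017D15Rik (0.947) and AI845619 (0.934). Slc38a2 had Klf11 (0.917), Gadd45a (0.909) and Bach1 (0.901). Slc7a5 had Trim16 (0.964) and Pitrm1 (0.935), and Slc1a4 had Lingo2 (0.892), Insig1 (0.872) and Mt1 (0.867).

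Among the genes that differed between the genotypes in both conditions, Slc1a5 was followed by Dusp12 (0.984), Capza1 (0.981) and Sec24b (0.974). Asns was followed by Med10 (0.977), Otud3 (0.973) and Usp48 (0.972). Psat1, on its shared probe set, was followed by Mars1 (0.99), the cytosolic methionyl-tRNA synthetase, Plpp2 (0.988) and Ino80c (0.981). Phgdh, which on its brightest probe set differed between the genotypes only with the block, had Rack1 (0.976), a ribosomal protein, Ddx1 (0.961) and Cgnl1 (0.96).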
